A study of Mus musculus with 12 samples.

Results

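The 10 genes described here encode chaperones of the endoplasmic reticulum (ER) and regulators of the unfolded protein response. They are Hspa5, Hsp90b1, Calr, Pdia4, Pdia6, Sdf2l1, Xbp1, Atf4, Ddit3 and Herpud1. Members were the probes that carry one of these names in the scanner files, and all 10 names were found among the 34797 gene names on the array. The 10 genes have 12 probes, since Pdia6 and Atf4 have 2 each, and all 12 probes were well above background on all 12 arrays. All 10 members were therefore among the 22765 genes tested.

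RNA of male mouse aorta was hybridised to 12 one-colour arrays, 3 for each of 4 groups. Every mouse carried the floxed Socs3 allele, Socs3fl/fl, on a background labelled 129S5/SvEvBrd, C57BL6 and SJL, and the labels used give no age. WT mice were littermates without the SM22-Cre transgene, and the mice labelled smSocs3-KO carried it, so that Cre recombinase was driven by the SM22 promoter of smooth muscle. Aortas were taken before challenge or at day 3 of a combined infusion of BAPN (150 mg/kg/day), which blocks the crosslinking of collagen and elastin, and a pressor hormone, angiotensin II (AngII), at 1000 ng/kg/min, as a model of aortic dissection. No label states that the 3 arrays of a group came from 3 separate mice, so the p-values measure the spread between these arrays only.

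The array signal is a processed intensity per spot, given here as log2 over the 75th percentile of its own array. Of the 62976 spots, 55.4% to 61.2% were well above background and none was saturated. The Socs3 probe did not read lower in the groups labelled smSocs3-KO, so the genotype is given by its label. These groups were 0.49 log2 units above WT before challenge and 1.50 above it at day 3 (limma adjusted p = 0.199). The arrays of the genotypes overlapped at both times. The paper describes the deletion as smooth muscle-specific, and the whole aorta was sampled. Why the Socs3 probe did not read lower was not tested. All 6 WT arrays and 1 smSocs3-KO array before challenge lay on slide 1, and the other 5 smSocs3-KO arrays lay on slide 2. The WT response was thus measured within 1 slide, whereas genotype and slide cannot be told apart at day 3. The smooth muscle markers Myh11, Acta2, Cnn1, Tagln, Smtn and Lmod1 were all well above background on all 12 arrays.

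The ER folds proteins destined for secretion and for membranes, and collagen, elastin and other matrix proteins of the aortic wall pass through it. When unfolded proteins build up in the ER, the sensors Atf6, Ern1 (IRE1) and Eif2ak3 (PERK) start a transcriptional program called the unfolded protein response. Atf6 and the spliced form of Xbp1 drive genes for chaperones and for degradation of misfolded proteins, while PERK slows translation and favours synthesis of Atf4, a factor that in turn drives Ddit3 (CHOP) and amino acid genes. Cleavage of Atf6, splicing of Xbp1 and translation of Atf4 are not seen by a probe that measures the total transcript.

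Atf6 and Xbp1 are known to bind the ER stress element (ERSE), which reads CCAAT, 9 bases of any kind and CCACG, and the related ERSE-II reads ATTGG, 1 base of any kind and CCACG. Both elements were searched on both strands of the RefSeq promoter windows of build GRCm38.p6, from 250 bases before to 50 bases after the annotated start site. ERSE occurred in 39 of 32851 windows (0.119%) and in those of 4 of the 10 members, namely Hspa5, Hsp90b1, Calr and Pdia6. ERSE-II occurred in 12 windows (0.0365%) and in that of 1 member, Herpud1. The shared CCACG, which is the end of both elements, occurred in 32.8% of windows and in those of 8 members, and was not found for Xbp1 and Ddit3. Neither TGACGTGG (0.676% of windows) nor the C/EBP-ATF element TGATGNAAT (0.965%), bound by Atf4 with C/EBP factors, was found in a member's window. A match describes the letters and does not show that a factor binds there. The elements were chosen because they are known from this response, to which the members belong. The shares among the members are therefore a description with no test.

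The 250 bases before the start site are shown for the 5 members with an element, because it is the feature they share, and for Sdf2l1, which had the largest WT response of the members and holds neither element. Each is written from 5′ to 3′ on the strand of its gene, with exact matches to ERSE or ERSE-II in capitals. Variants of the elements, and elements outside the promoter window, were not searched, so a member without a match may still hold one. The windows are chr2:34771840-34772089 for Hspa5, chr12:17266339-17266588 for Pdia6 and chr8:94386179-94386428 for Herpud1, all on the plus strand. On the minus strand they are chr10:86705445-86705694 for Hsp90b1, chr8:84846932-84847181 for Calr and chr16:17132384-17132633 for Sdf2l1.
Hspa5: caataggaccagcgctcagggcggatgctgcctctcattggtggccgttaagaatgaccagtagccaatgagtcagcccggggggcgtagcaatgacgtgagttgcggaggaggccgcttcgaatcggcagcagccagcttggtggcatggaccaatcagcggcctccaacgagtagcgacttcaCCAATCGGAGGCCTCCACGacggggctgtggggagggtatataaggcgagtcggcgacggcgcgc
Pdia6: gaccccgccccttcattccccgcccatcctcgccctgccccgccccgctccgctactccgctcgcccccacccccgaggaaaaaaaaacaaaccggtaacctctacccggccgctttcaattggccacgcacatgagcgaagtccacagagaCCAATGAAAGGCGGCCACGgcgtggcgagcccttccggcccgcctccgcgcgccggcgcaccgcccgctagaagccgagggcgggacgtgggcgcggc
Hsp90b1: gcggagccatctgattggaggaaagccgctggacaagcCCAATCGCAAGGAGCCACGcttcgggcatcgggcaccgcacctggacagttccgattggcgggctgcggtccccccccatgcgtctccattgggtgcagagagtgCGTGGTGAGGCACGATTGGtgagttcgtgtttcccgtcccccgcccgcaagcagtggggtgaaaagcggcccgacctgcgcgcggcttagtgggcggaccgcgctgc
Calr: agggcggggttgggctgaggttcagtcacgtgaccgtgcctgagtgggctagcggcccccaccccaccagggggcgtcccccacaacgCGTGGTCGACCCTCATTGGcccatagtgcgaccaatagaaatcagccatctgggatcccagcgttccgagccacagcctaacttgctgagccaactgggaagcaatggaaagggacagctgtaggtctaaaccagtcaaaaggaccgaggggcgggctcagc
Herpud1: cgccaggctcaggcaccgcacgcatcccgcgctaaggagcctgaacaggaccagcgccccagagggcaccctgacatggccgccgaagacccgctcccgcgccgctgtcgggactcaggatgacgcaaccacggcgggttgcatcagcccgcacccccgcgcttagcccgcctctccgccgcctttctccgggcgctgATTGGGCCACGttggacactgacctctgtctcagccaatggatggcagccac
Sdf2l1: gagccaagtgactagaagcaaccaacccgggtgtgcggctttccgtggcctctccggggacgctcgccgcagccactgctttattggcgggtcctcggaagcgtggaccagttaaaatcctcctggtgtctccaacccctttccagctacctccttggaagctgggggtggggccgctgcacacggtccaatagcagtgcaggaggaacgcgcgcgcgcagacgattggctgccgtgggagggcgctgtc

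The ERSE of Hspa5 ended closest to the start site, from position -65 to -47, where -1 is the last base before it. That of Pdia6 lay from -98 to -80. Hsp90b1 held 2, forward from -212 to -194 and reverse from -107 to -89, and the one of Calr was in reverse from -162 to -144. The ERSE-II of Herpud1 lay from -52 to -42. Sdf2l1 held CCACG in reverse at 3 positions, each without a CCAAT at the spacing of ERSE.

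**Figure D1:**
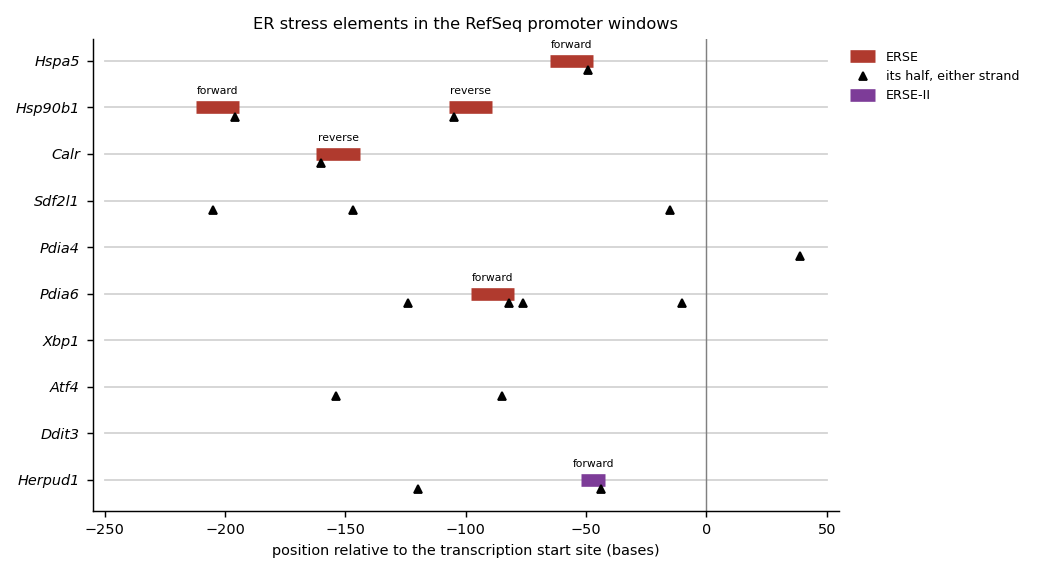
Positions of ERSE, ERSE-II and their shared CCACG, in bases from the annotated transcription start site, in the promoter windows of the 10 members. ERSE lies before the start site in Hspa5, Hsp90b1, Calr and Pdia6, and ERSE-II in Herpud1, between -212 and -42.

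In WT aorta, 5 of the 10 members rose at day 3 of challenge by an adjusted p under 0.05, namely Hspa5, Hsp90b1, Calr, Pdia6 and Sdf2l1, where 4.69% of all genes were called in either direction. All 5 act in the ER lumen, and their differences ran from 0.66 to 1.20 on the log2 scale. The sixth lumen protein, Pdia4, and the 4 other members Xbp1, Atf4, Ddit3 and Herpud1 did not pass. In 7 members the 3 WT arrays at day 3 all lay above the 3 before challenge, and 0 lay below, where 35.3% of all genes did not overlap in either direction. The median difference of the 10 members was 0.62, and that of all genes tested was -0.04. In bulk tissue, fewer cells of a type and less RNA per cell cannot be told apart, and likewise more of either.

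In mice labelled smSocs3-KO, 0 of the 10 members passed the test of day 3 against before challenge, where 2.41% of all genes did. An unadjusted p under 0.05 was reached by 1 member (Sdf2l1) and by 5527 of the 22765 genes tested. Sdf2l1 lay higher on all 3 day 3 arrays and Ddit3 lower, and 29% of all genes did not overlap. The median of the 10 members was 0.20, against -0.11 over all genes. Over the mean of both responses, 4 of 10 members were called, all higher, where 22.9% of all genes were called. These were Hspa5 (0.70), Pdia6 (0.76), Sdf2l1 (1.05) and Calr (0.36). Hsp90b1, at 0.35, had an adjusted p of 0.0504. No comparison had a member past p under 0.01 with a fold over 4 in either direction, a pair of thresholds that 0.237% to 1.56% of all genes passed, depending on the comparison.

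**Figure D2:**
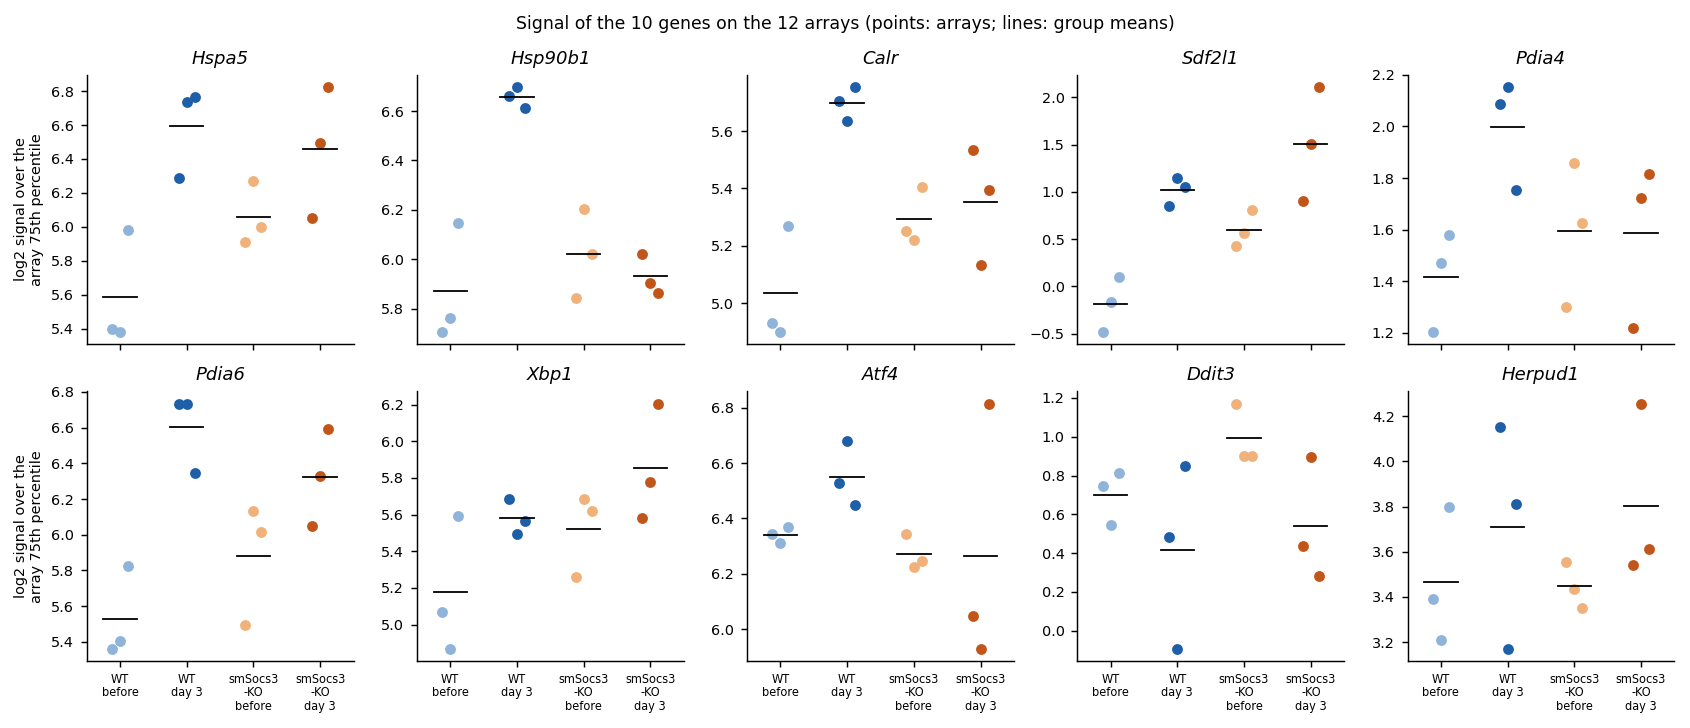
Log2 signal over the 75th percentile of the array for the 10 members, with 1 point per array, 3 arrays per group and a line at the group mean. The axes differ between genes, and levels are not comparable between panels. The WT day 3 arrays of Hsp90b1 lie between 6.61 and 6.70, above all other arrays.

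The calls in WT depended on the arrays in the fit and on the normalization. Without WT before challenge replicate 1, 2 or 3, or without WT day 3 replicate 1 or 3, 0 members were called, and the count over all genes fell from 1068 to between 0 and 3. The members called were also 0 without smSocs3-KO before challenge replicate 4. With quantile normalization of the processed signal, 1 member was called, Sdf2l1. Without smSocs3-KO day 3 replicate 3 or smSocs3-KO before challenge replicate 3, 2 and 3 members were called. In the mean of both responses, 2 members were called without WT before challenge replicate 1 or 2. The sizes kept their sign over all 25 alternatives. Hspa5 lay between 0.74 and 1.21, Hsp90b1 between 0.50 and 0.92 and Calr between 0.40 and 0.78. Pdia6 lay between 0.76 and 1.22 and Sdf2l1 between 1.04 and 1.34. The lowest values of Hspa5, Hsp90b1 and Pdia6 came with the authors' table of processed values. That of Calr came with quantile normalization of the processed signal, where Sdf2l1 was at 1.20.

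Hspa5 encodes BiP, the Hsp70 chaperone of the ER lumen, which binds nascent chains and holds the stress sensors inactive. Its probe lies at chr2:34631913-34631972 of build mm9, the build of all probe positions given here. The log2 signal was 5.40, 5.38 and 5.98 on the WT arrays before challenge and 6.29, 6.73 and 6.77 at day 3. On the arrays labelled smSocs3-KO it was 5.91, 6.27 and 6.00 before challenge and 6.05, 6.50 and 6.83 at day 3. The WT groups did not overlap, and the smSocs3-KO groups did. Hspa5 rose by 1.01 (SE 0.24, 2.01-fold, limma adjusted p = 0.0452) in WT, and the smSocs3-KO difference was 0.40 (SE 0.24, adjusted p = 0.329). By group mean, WT before challenge was lowest at 5.59, smSocs3-KO before challenge followed at 6.06, smSocs3-KO day 3 at 6.46 and WT day 3 at 6.60, and each group overlapped with the next.

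Hsp90b1 encodes the Hsp90 chaperone of the ER (chr10:86153770-86153829). On WT arrays its log2 signal was 5.71, 5.76 and 6.15 before challenge and 6.66, 6.70 and 6.61 at day 3. It read 5.84, 6.21 and 6.02 on the smSocs3-KO arrays before challenge and 6.02, 5.91 and 5.86 at day 3. The 3 WT day 3 arrays stood above the 9 others, which overlapped across groups. Hsp90b1 rose by 0.79 in WT (SE 0.16, adjusted p = 0.0336), and the smSocs3-KO difference was -0.09 (95% interval -0.45 to 0.26). At day 3 it was 0.73 log2 units below WT in the smSocs3-KO group, without overlap, with an adjusted p of 0.0624, and it passed in 3 of 25 alternatives.

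Calr encodes calreticulin, a calcium-binding lectin chaperone of glycoproteins (chr8:87366192-87366251). Its WT signals were 4.93, 4.90 and 5.27 before challenge and 5.71, 5.64 and 5.75 at day 3. The smSocs3-KO signals were 5.25, 5.22 and 5.41, then 5.54, 5.13 and 5.39 at day 3. Calr rose by 0.66 in WT (SE 0.16, adjusted p = 0.0447) with no overlap, while the smSocs3-KO groups overlapped with a difference of 0.06 (95% interval -0.29 to 0.41). At day 3 all 3 smSocs3-KO arrays lay below all 3 WT arrays, by 0.34 on average, and the adjusted p was 0.311.

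Sdf2l1 encodes an ER lumen protein that works with BiP and its J-domain partners (chr16:17130426-17130485). It read -0.48, -0.17 and 0.10 on the WT arrays before challenge and 0.85, 1.15 and 1.05 at day 3. On smSocs3-KO arrays the values were 0.42, 0.57 and 0.81 before challenge and 0.90, 1.51 and 2.11 at day 3. Both genotypes were higher at day 3 without overlap, and the 3 smSocs3-KO arrays before challenge lay above the 3 WT ones. The WT rise was 1.20 (SE 0.28, 2.29-fold, adjusted p = 0.0407), higher than that of 96.8% of genes tested. The smSocs3-KO difference was 0.91 (SE 0.28, adjusted p = 0.0952), and it was 0.82 with an adjusted p of 0.322 within slide 2. Before challenge the smSocs3-KO group was 0.78 above WT (unadjusted p = 0.0171, adjusted p = 0.9999), and the 1 smSocs3-KO array on slide 1 was 0.61 above the WT mean.

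The members Pdia4 and Pdia6 encode disulphide isomerases, which form and rearrange disulphide bonds in the lumen. Pdia6 (chr12:17291070-17291129) read 5.36, 5.41 and 5.82 in WT before challenge and 6.74, 6.73 and 6.34 at day 3. Its smSocs3-KO values were 5.50, 6.13 and 6.02, then 6.05, 6.33 and 6.59 at day 3. Only the WT groups were free of overlap, and Pdia6 rose by 1.07 in WT (SE 0.23, adjusted p = 0.0348), with a smSocs3-KO difference of 0.44 (SE 0.23, adjusted p = 0.255). A second, dimmer probe (chr12:17291323-17291382) gave a rise of 1.34 in WT (SE 0.23, adjusted p over all probes 0.0330) and 0.33 in smSocs3-KO (SE 0.23).

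Pdia4 (chr6:47746516-47746575) read 1.20, 1.47 and 1.58 on the WT arrays before challenge and 2.09, 2.15 and 1.75 at day 3. Those labelled smSocs3-KO read 1.30, 1.86 and 1.62 before challenge and 1.22, 1.72 and 1.81 at day 3. The WT groups did not overlap, yet the difference of 0.58 (SE 0.22) missed the threshold, with an adjusted p of 0.122. The smSocs3-KO groups overlapped, with a difference of -0.01 (95% interval -0.49 to 0.47).

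**Figure D3:**
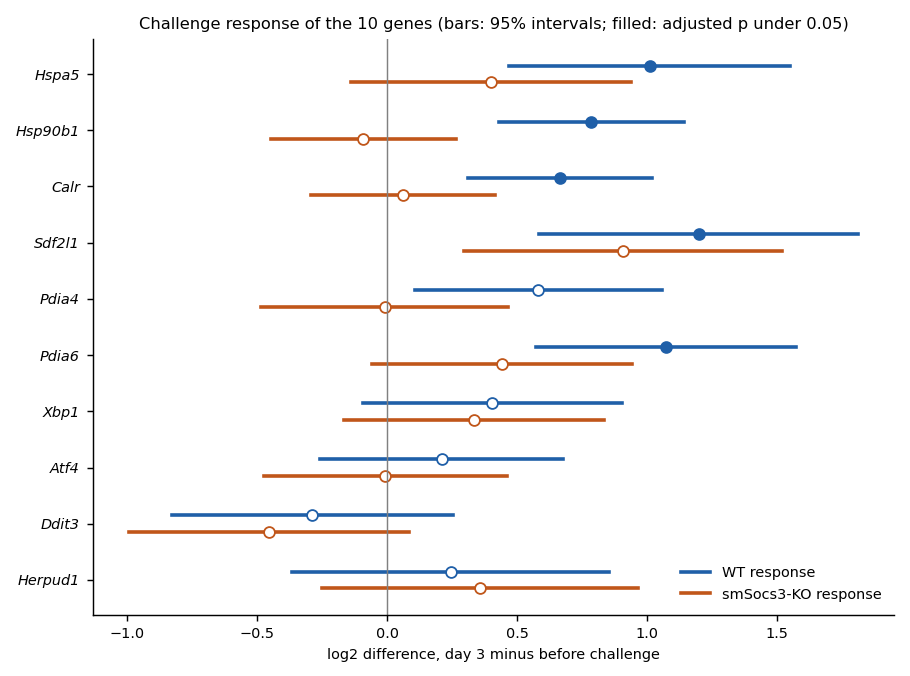
Log2 difference of day 3 minus before challenge for each member in WT and in mice labelled smSocs3-KO, with 95% intervals from the fit and filled points where the adjusted p was under 0.05. The WT points of Hspa5, Hsp90b1, Calr, Sdf2l1 and Pdia6 are filled, and 0 of the smSocs3-KO points are.

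The 3 transcription factors showed no called difference in any comparison. Xbp1 (chr11:5425816-5425875), the factor activated by Ern1, read 5.07, 4.87 and 5.59 in WT before challenge and 5.68, 5.49 and 5.57 at day 3. In the smSocs3-KO groups it read 5.26, 5.69 and 5.62, then 5.58, 5.78 and 6.21. All these groups overlapped within genotype, and the differences were 0.40 (SE 0.23, adjusted p = 0.274) in WT and 0.33 (SE 0.23, adjusted p = 0.373) in smSocs3-KO.

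Atf4 (chr15:80087902-80087961) is the main effector of PERK and of the other kinases of the integrated stress response. It read 6.34, 6.31 and 6.37 in WT before challenge and 6.53, 6.68 and 6.45 at day 3, which did not overlap, but the difference of 0.21 (SE 0.21) had an adjusted p of 0.550. In the smSocs3-KO groups it read 6.34, 6.22 and 6.25, then 6.05, 5.93 and 6.81. Replicate 5 at day 3 was the highest of all 12 arrays and the other two day 3 arrays were the lowest, so the SD of that group was 0.48, against 0.03 in WT before challenge. A second probe at chr15:80086639-80086698 had the same array highest and the same 2 arrays lowest, at 1.46, 0.40 and 0.54.

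Ddit3, which encodes CHOP, a factor tied to cell death under lasting ER stress, was the 1 member below 0 in both responses. Its probe spans 304 bases of the genome (chr10:126732518-126732821), which is more than the 60 of the other 11 probes. In WT it read 0.75, 0.54 and 0.81 before challenge and 0.49, -0.09 and 0.85 at day 3. In smSocs3-KO it read 1.17, 0.90 and 0.90, then 0.44, 0.89 and 0.28. The smSocs3-KO groups did not overlap, the highest day 3 array lying just under the lowest before challenge. The difference was -0.29 (SE 0.24, adjusted p = 0.472) in WT and -0.45 (SE 0.24, adjusted p = 0.273) in smSocs3-KO.

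Herpud1 encodes an ER membrane protein of ER-associated degradation (chr8:96919117-96919176). Its values were 3.39, 3.21 and 3.80 in WT before challenge and 4.15, 3.17 and 3.81 at day 3, and 3.56, 3.43 and 3.35 in smSocs3-KO before challenge and 3.54, 4.26 and 3.61 at day 3. The groups overlapped in both genotypes, with differences of 0.24 (SE 0.28, adjusted p = 0.595) and 0.36 (SE 0.28, adjusted p = 0.432).

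The design also asks whether the genotypes differed. Before challenge, 0 members were called, where 0.0307% of all genes were. Of the 10 members, 8 were above WT, with a median of 0.27 against -0.001 over all genes. Sdf2l1 and Ddit3 lay above WT on all 3 arrays, and 11.1% of all genes did not overlap. At day 3, 0 members were called, where 1.08% of all genes were. Then 4 of the 10 were above WT, with a median of -0.21 against -0.11 over all genes. Hsp90b1 and Calr lay below WT without overlap, and 21.5% of all genes did not overlap. The interaction, which is the smSocs3-KO response minus the WT response, was called for 0 members and for 0% of all genes by limma, although 1261 genes and 2 of the members had an unadjusted p under 0.05. These were Hsp90b1 (-0.88, SE 0.23, adjusted p = 0.725) and Calr (-0.60, SE 0.23, adjusted p = 0.886). The interaction was negative for 9 of 10 members (7 to 10 over the alternatives), with a median of -0.44 against -0.07 over all genes, and was 0.11 for Herpud1.

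Slide entered these comparisons. With slide as a block, the interaction was -0.97 for Hsp90b1 (adjusted p = 0.490) and -0.62 for Calr (adjusted p = 0.670), and the same 5 members were called in WT. The difference before challenge then rested on the 1 smSocs3-KO array of slide 1, with 7 of 10 members above WT and a median of 0.09. The smSocs3-KO response then rested on slide 2 alone. The values that follow are therefore the same estimates and not separate checks. For both responses, the fit with slide as a block gave the same values as leaving out smSocs3-KO before challenge replicate 1. Within slide 2, where 3 day 3 and 2 earlier smSocs3-KO arrays lie, the response was 0.33 for Hspa5, 0.25 for Pdia6, -0.18 for Hsp90b1, 0.04 for Calr and -0.16 for Pdia4. Before challenge, the 1 smSocs3-KO array on slide 1 was 0.32 above the WT mean in Hspa5 and within 0.03 of it in Hsp90b1 and Pdia6, with differences of -0.03 in both.

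Pairs of members were compared over the 12 arrays. The 15 pairs among Hspa5, Hsp90b1, Calr, Pdia4, Pdia6 and Sdf2l1 had a median Pearson r of 0.73, with a range of 0.29 to 0.89. The other 4 members had a median of 0.03 over their 6 pairs (-0.56 to 0.47), and the 24 mixed pairs had a median of 0.36 (-0.54 to 0.86). The ranges overlapped, and Xbp1 had an r of 0.86 with Sdf2l1, 0.80 with Hspa5 and 0.76 with Pdia6. After removal of the group means the medians were 0.53 for the first set (-0.19 to 0.91), 0.14 for the second (-0.53 to 0.80) and 0.11 for the mixed pairs (-0.40 to 0.84). All values of an array share its RNA and its scaling, and the first set includes members chosen with their rise known, so these are descriptions with no test.

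Among the 14106 other genes with a RefSeq symbol, the 5 most like Hspa5 over the 12 arrays were Creld2 (r = 0.99), Ftsj1 (0.95), Slc35b1 (0.94), Hint1 (0.92) and Ghitm (0.92). Creld2 encodes an ER lumen protein of the disulphide isomerase kind. It read 3.60, 3.60 and 4.15 in WT before challenge and 4.55, 5.23 and 5.05 at day 3, then 4.17, 4.45 and 4.25 in smSocs3-KO before challenge and 4.19, 4.84 and 5.37 at day 3. Creld2 was picked for this likeness on the same arrays, so its high values where Hspa5 was high were set by the choice. Hsp90b1 left Hspa5 on the smSocs3-KO day 3 arrays, where the array with the highest Hspa5 (6.83) had 5.86 for Hsp90b1. For Atf4 the 5 most alike were Homer1 (0.92), Cttnbp2nl (0.91), Lrrc41 (0.88), Sec16a (0.88) and Slc7a1 (0.87). They too were picked for this likeness on the same arrays. Sec16a acts where vesicles leave the ER, and its differences were 0.03 in WT and -0.08 in smSocs3-KO. Slc7a1 carries cationic amino acids, with differences of 0.42 (limma adjusted p = 0.278) and -0.17 (adjusted p = 0.663).

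**Figure D4:**
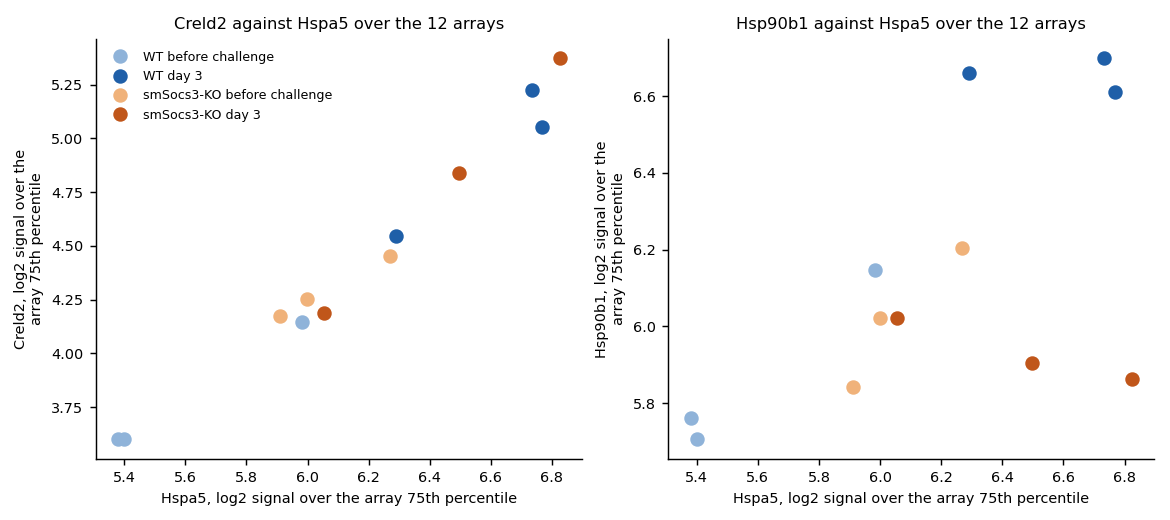
Log2 signal over the array's 75th percentile of Creld2 and of Hsp90b1, each against Hspa5, with 1 point per array and colours for the 4 groups. Creld2 was picked as the gene most correlated with Hspa5 over these 12 arrays (r = 0.99). The 3 smSocs3-KO day 3 arrays have lower Hsp90b1 than the 3 WT day 3 arrays.

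The rest of the pathway was read from 7 lists of other ER and stress response genes, and counts below are for the mean of both responses, in which 22.9% of all genes were called. Genes that move proteins into and out of the ER were called most often. Of 22 genes of the translocon, signal peptidase and oligosaccharyltransferase, 16 rose and 0 fell, with a median of 0.64 against -0.08 over all genes. The largest rises were Ssr4 (1.09), a subunit beside the translocon, and Ostc (1.08) and Ddost (0.996), subunits of the enzyme that adds N-glycans. Of 21 genes of vesicle coats and ER to Golgi transport, 14 rose and 0 fell, with a median of 0.57. Tmed9 (0.94) and Mcfd2 (0.90) act in cargo transport, and Kdelr2 (0.92) returns ER proteins from the Golgi.

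Ssr4 read 3.84, 3.92 and 4.20 in WT before challenge and 5.70, 5.35 and 4.93 at day 3. In smSocs3-KO it read 4.15, 4.42 and 4.31, then 5.16, 5.09 and 5.16. The day 3 arrays were higher without overlap in both genotypes, by 1.34 in WT (SE 0.20, adjusted p = 0.0298) and 0.84 in smSocs3-KO (SE 0.20, adjusted p = 0.0531).

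Of 10 disulphide isomerases and oxidases tested, 6 rose and 0 fell, among them Pdia5 (1.18), P4hb (0.79), which is also a subunit of collagen prolyl hydroxylase, and Erp29 (0.75), an isomerase relative. Among 14 other lumen chaperones and co-chaperones, 5 rose and 0 fell, with a median of 0.33, and 2 rose without WT before challenge replicate 1 or without replicate 2. Manf, a secreted ER stress protein, was largest at 1.54, followed by Creld2 (0.83) and Dnajb11 (0.80), a J-domain partner of BiP. Hyou1, the large Hsp70 of the lumen, was at -0.06 (adjusted p = 0.833), and Serpinh1, the collagen chaperone, at 0.20 (adjusted p = 0.403).

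Manf was the one gene of the lumen list called in both responses, at 1.68 in WT (adjusted p = 0.0318) and 1.40 in smSocs3-KO (adjusted p = 0.0443). It read 2.06, 1.87 and 2.43 in WT before challenge and 3.78, 4.20 and 3.44 at day 3. In smSocs3-KO it read 2.10, 3.06 and 2.75, then 3.59, 4.05 and 4.47. All 6 day 3 arrays lay above all 6 earlier ones. With slide as a block the smSocs3-KO difference was 1.13 and did not pass (adjusted p = 0.138), and of the 12 omissions of 1 array it passed in 1, that of WT day 3 replicate 4.

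Of 14 genes of ER-associated degradation, 6 rose and 0 fell, and without WT day 3 replicate 4 the counts were 5 and 2. The largest rises were H47 (0.79), the array's name for selenoprotein S, Ube2j1 (0.70), a ubiquitin-conjugating enzyme of the ER membrane, and Edem3 (0.63), a mannosidase. Of 9 sensors and their processing enzymes, 1 rose, the membrane-bound factor Creb3 (0.53), and Atf6 (0.28), Eif2ak3 (0.23) and Ern1 (-0.37) did not pass. Creb3 was 0.80 higher in WT at day 3 (adjusted p = 0.0332) and 0.26 in smSocs3-KO (adjusted p = 0.306). At day 3 the smSocs3-KO group was 0.89 below WT in Creb3 (limma adjusted p = 0.0262), where genotype and slide cannot be told apart.

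Of 26 genes of the PERK branch and the integrated stress response, 12 rose and 1 fell. Psat1 (1.80), of serine synthesis, and Asns (1.72), which makes asparagine, were among the largest, as was Ddit4 (1.79), an inhibitor of mTOR. Psat1 read -0.25, -0.30 and -0.27 in WT before challenge and 2.79, 2.70 and 0.87 at day 3, and 0.32, 0.14 and 0.19 in smSocs3-KO before challenge and 1.54, 0.86 and 1.84 at day 3. Its day 3 arrays were higher without overlap in both genotypes, and replicate 4 was the lowest of WT day 3. The gene that fell was Vldlr (-0.89), a lipoprotein receptor. Trib3 (-0.04), Ppp1r15a (-0.30) and Atf3 (-1.22), which are textbook targets of the branch beside Ddit3, did not pass.

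Ddit4 had the largest interaction of the list genes named. It read 0.10, 0.04 and 0.48 in WT before challenge and 0.92, 0.61 and 0.72 at day 3, and 0.72, 0.19 and 2.84 in smSocs3-KO before challenge and 3.41, 4.35 and 5.11 at day 3. At day 3 the smSocs3-KO group was 3.54 above WT (limma adjusted p = 0.0262), where genotype and slide cannot be told apart. In that comparison 2 of the 26 genes of the PERK branch list were called higher and 0 lower, where 1.08% of all genes were called. The response was 0.54 in WT (adjusted p = 0.584) and 3.04 in smSocs3-KO (adjusted p = 0.0364). The interaction of 2.49 had an adjusted p of 0.864. With slide as a block the smSocs3-KO difference was 2.77 and did not pass (adjusted p = 0.120), and it passed in 5 of the 12 omissions of 1 array, those of the 3 WT day 3 arrays, smSocs3-KO before challenge replicate 4 and smSocs3-KO day 3 replicate 2.

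**Figure D5:**
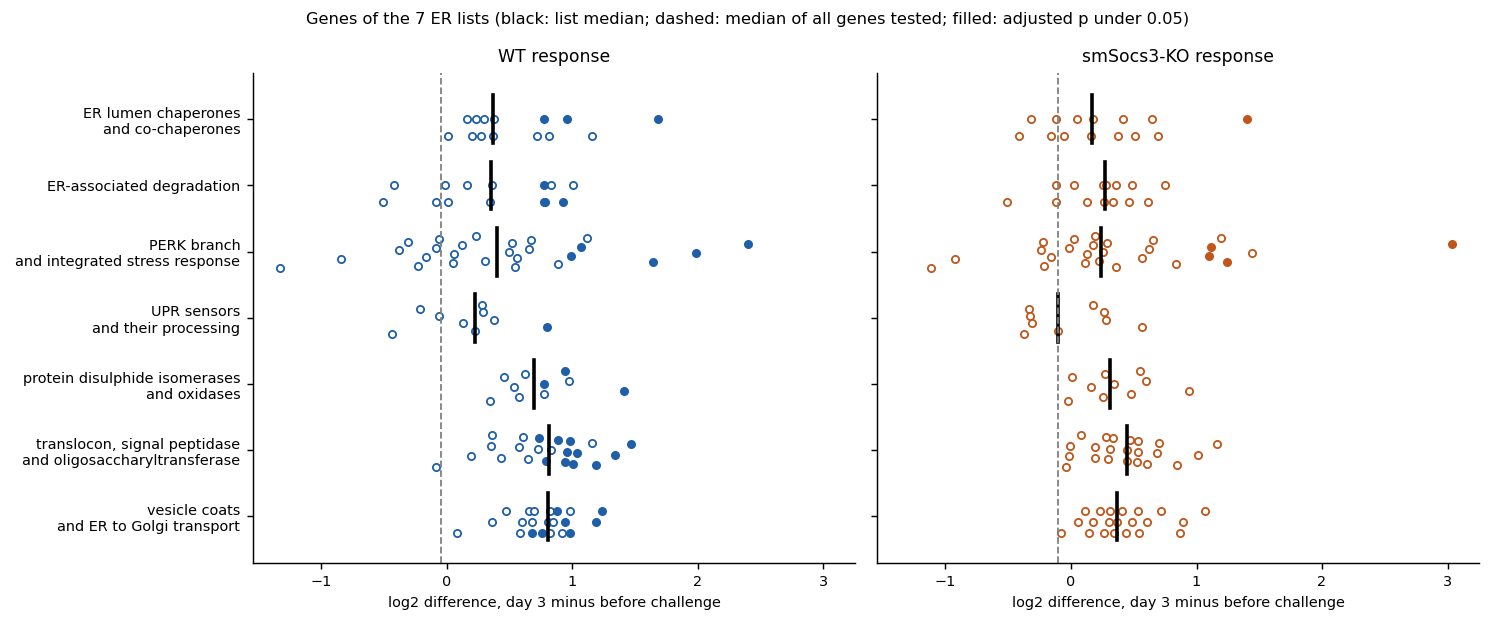
Log2 difference of day 3 minus before challenge for each tested gene of the 7 lists, in WT and in mice labelled smSocs3-KO, with the list median in black, the median of all genes dashed and filled points at an adjusted p under 0.05. In WT, 11 of 22 translocon genes and 7 of 21 vesicle genes are filled, and 0 of either in smSocs3-KO. The filled points of the PERK branch are 5 of 26 in WT and 4 in smSocs3-KO, and those of the lumen chaperones 3 of 14 and 1.

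The lists were also read with slide as a block, and the counts of genes that rose were then 15 for the translocon, 14 for vesicles, 5 for isomerases, 4 for lumen chaperones, 4 for degradation, 1 for sensors and 10 for the PERK branch. When each of the 12 arrays was left out in turn, they ran from 14 to 16 for the translocon, 9 to 18 for vesicles, 3 to 7 for isomerases, 2 to 5 for lumen chaperones, 4 to 6 for degradation and 8 to 14 for the PERK branch, and the count of sensors stayed at 1. The lowest counts of vesicle genes came without WT before challenge replicate 1 or 2, WT day 3 replicate 1 or smSocs3-KO day 3 replicate 5, and those of isomerases without WT before challenge replicate 1 or WT day 3 replicate 1. The lumen count was 3 without WT day 3 replicate 1, smSocs3-KO day 3 replicate 2 or smSocs3-KO day 3 replicate 3. ERSE was found in 37 of 27025 genes with a promoter window (0.137%), and on the lists in Canx, Dnajc3 and Creld2 of 11 lumen chaperones with a window, in Ero1lb of 10 isomerases and in Syvn1 and Derl3 of 12 degradation genes. It was found in 0 genes of the 4 other lists, and ERSE-II was found in Dnajb11 alone among the 7 lists.

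Markers of other cells moved over the same arrays. The mean log2 shift of 7 dividing cell markers from WT before challenge was 2.37 to 5.13 on WT day 3 arrays and 1.83 to 3.65 on smSocs3-KO day 3 arrays, and WT day 3 replicate 4 was the lowest of WT. All 7 were called higher in WT at day 3, but only 4 of these 7 were well above background on all arrays. The others could enter through the groups where they were bright, so their rise is in part set by the filter. The 6 macrophage markers shifted by 0.30 to 1.75 and by 1.61 to 1.88, and smooth muscle markers by -0.78 to 0.01 and by -0.99 to -0.51. The 7 plasma cell and B cell markers tested shifted by -0.64 to -0.56 in WT day 3 and by -0.37 to 1.08 in smSocs3-KO day 3. Of this lineage the plasma cells have an extensive ER, and only 3 of these 7 markers were well above background on all arrays. Shifts at day 3 were -0.26 to 1.25 and 0.82 to 3.41 for 4 neutrophil markers, -0.58 to -0.21 and 0.24 to 0.82 for 6 fibroblast markers, 0.13 to 0.21 and -0.16 to 0.19 for 6 endothelial markers, and -1.64 to 1.62 and -0.83 to 1.32 for 5 adipocyte markers. Their part in the differences of the members was not tested. Without WT day 3 replicate 4, the same 5 members were called in WT.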

How the data were processed

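The authors scanned 12 one-colour Agilent arrays and deposited the scanner output, an intensity per spot after background subtraction (Feature Extraction, version 10.7.1.1 per the file headers and 9.5.1.1 per the submitters' processing notes), and 1 table of processed intensity values that covers all 12, which tracked them (lowest Spearman correlation 0.99997) and served as an alternative. Here, control and outlier spots were dropped from the processed signal, log2 values were averaged over the spots of a probe and the 75th percentile over all spots other than controls was subtracted. That percentile was first taken over probes and was changed to spots after results had been seen. The earlier form is kept as an added alternative. A probe had to be well above background on every array of 1 or more groups, which 32287 of 55681 were, and the brightest stood for its gene. limma 3.58.1 (R 4.3.3) fitted the means of the 4 groups, and genes were called at a Benjamini-Hochberg adjusted p under 0.05 over 22765 genes. A p under 0.01 with a fold over 4, the form of threshold in the paper's methods, was counted beside it. The model was tested on simulated data.

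The members, lists and tests were chosen with earlier results of these data known, so counts on them are not independent evidence. Genes named were all members, up to 3 called rises and 3 called falls per list in the mean response, and the 5 genes most correlated with Hspa5 and with Atf4. Hyou1, Serpinh1, Atf6, Eif2ak3, Ern1, Trib3, Ppp1r15a and Atf3 were named after their values were seen. Alternatives covered background correction, normalization, filter, probe choice, variance moderation, arrays fitted, slide, replicate number and omission of each array. Same-numbered arrays did not deviate together (r from -0.40 to 0.46 over 11 pairs), so numbers were not treated as pairs. Of the tested genes, 14117 and all 10 members had a symbol in RefSeq of GRCm38.p6, used for names and promoters only. Member proteins and exon annotation on mm9 were not used here. Precision is limited by 3 arrays per group.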

Additional observations from a re-analysis of the deposited data

How the results depend on the processing

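There were 25 alternatives, 12 of which left out 1 array each. The count of members called in the WT response, 5, became 3 with normexp background and quantile normalization, 1 with quantile normalization of the processed signal, 1 with the authors' value table, 0 with no filter on dim probes and 0 with only the arrays of the groups compared. Over all genes, the WT count of 1068 became 1359, 615, 614, 10 and 0 under the same alternatives. Over the 12 omissions it ran from 0 to 5, and that of the mean response, 4, from 2 to 5. The day 3 genotype difference called 1 member, Hsp90b1, with normexp and quantile normalization and with a variance trend and robust moderation, and 0 to 1 over the omissions. With the replicate number as a block, which spends degrees of freedom on numbers that were not shown to pair arrays, 0 members were called in WT and 1 in the mean response, and over all genes 0 and 863 were called against 1068 and 5212. Under that block the genes of the lists called higher in the mean response were 1 for the translocon, 5 for the PERK branch, 3 for lumen chaperones and 0 for the other 4 lists. The other comparisons stayed at 0 members in every alternative that could be run. With only the arrays of the groups compared, the mean response and the interaction could not be fitted. No called member changed direction. Sdf2l1 kept its call in the mean response in 24 of 24 alternatives, Pdia6 in 23, Hspa5 in 21 and Calr in 8. With the 75th percentile over probes, an alternative chosen after seeing the data, 5 members were called in WT and 5 in the mean response, where Hsp90b1 was added. The median of all genes in the mean response was -0.08, and -0.16 with no filter.

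Signal over background did not limit the members, whose 12 probes were well above background on all arrays. The 5 WT calls had adjusted p-values from 0.0336 to 0.0452, against a threshold of 0.05. The cause of each lost call was not tested.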
